A study of Mus musculus with 6 samples.

Results

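The 46 mouse genes described here encode the machinery that copies DNA, from origin recognition to the joining of the lagging strand and the supply of nucleotides. They were taken by gene symbol, by their role in replication, and all 46 were among the 37315 genes of the deposited abundance table. In the table of allelic counts, 40 of them were among 19402 genes. RNA-seq was available for 3 immortalised clones of the B lineage (Abl.2, Abl.3, Abl.4), each a line of 129S1/SvImJ x CAST/EiJ F1 background, so that the 2 alleles of a gene can be told apart at strain-specific SNPs. All lines were controls in growth medium with 1% DMSO, a solvent, and live cells were taken on day 2 after a density gradient. The labels give Abl.2 and Abl.4 as female and Abl.3 as male. Each line had 2 libraries that the labels call library preparation replicates, so the p-values below measure the spread between preparations from 1 clone and not the spread between clones.

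Replication starts where the origin recognition complex (ORC), Cdc6 and Cdt1 load the ring-shaped MCM helicase on DNA, a step called licensing. The Cdc7-Dbf4 kinase, Cdc45, the GINS complex and Mcm10 then turn the loaded ring into an active helicase, and polymerases alpha, delta and epsilon synthesise DNA with the help of the sliding clamp PCNA and its loader RFC. Many of these genes are transcribed in late G1 and S phase under E2F transcription factors, which is why they are often read as a proliferation group.

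A library held between 18362319 and 26881211 allelic counts, and a member had between 378 counts (Orc3) and 33576 counts (Mcm2) in a library. The B-lineage label was checked on 12 marker genes, of which 11 in Abl.2, 12 in Abl.3 and 11 in Abl.4 reached 1 TPM (a level scaled to gene length and library total). Their summed level was 14700 to 17000 TPM per library. Ms4a1 was the exception, at 0.12 and 0.18 TPM in Abl.2 and 0.36 and 0.37 TPM in Abl.4 against 6.09 and 6.19 TPM in Abl.3. No marker of 6 erythroid and 5 fibroblast genes reached 1 TPM, and of 7 T-cell markers Lck and Cd5 did, with Cd3d at no more than 0.07 TPM. The 7 myeloid markers summed to 161 to 196 TPM in Abl.2, 81.0 to 103 TPM in Abl.3 and 80.5 to 92.9 TPM in Abl.4, most of it Lyz2, while Adgre1 and Elane were listed at 0 in every library. This sum was higher in Abl.2, the line in which many members below were lower, and its part in those results was not tested.

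Reference promoters were read from RefSeq (GRCm38.p6, the C57BL/6J sequence rather than either parental strain), as 250 bases before and 50 after each annotated start. Entries matched 38 of the 46 members; Gins1, Gins2, Gins4, Gmnn, Mcm4, Pole, Prim2 and Rfc2 had none. Both strands were searched for an E2F-type motif, spelled TTTCCCGC, TTTGGCGC, TTTCGCGC or TTTGCCGC, for the CCAAT box (CCAAT) and for the cell-cycle homology region (TTTGAA). Matches may share bases with each other. At least 1 E2F-type match was in 15 of the 38 members, 39.5%, against 2.6% of the 27025 genes with a promoter in the table. CCAAT was in 60.5% of the members and 41.1% of all genes, and TTTGAA in 18.4% and 20.2%. A match describes letters and shows no binding, and a missing match does not show that binding is absent.

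The promoters of 4 members are shown as examples of members with different abundance results. Rrm2, Tyms and Rfc3 had some of the largest differences of Abl.2 from the other lines. Mcm6 is a ring subunit that limma called in no pair on all 6 libraries without a replicate block or quantile normalisation. Capitals mark E2F-type and CCAAT matches on either strand. The Rrm2 window (chr12:24708004-24708303, plus strand) holds 1 CCAAT and no E2F-type match. The Tyms window (chr5:30073576-30073875, minus strand) holds neither. In the Rfc3 window (chr5:151651159-151651458, minus strand) there are 2 E2F-type matches close to the start and 1 CCAAT on the opposite strand. The Mcm6 window (chr1:128359656-128359955, minus strand) holds 3 E2F-type matches, of which 2 overlap, and 2 CCAAT boxes.
Rrm2: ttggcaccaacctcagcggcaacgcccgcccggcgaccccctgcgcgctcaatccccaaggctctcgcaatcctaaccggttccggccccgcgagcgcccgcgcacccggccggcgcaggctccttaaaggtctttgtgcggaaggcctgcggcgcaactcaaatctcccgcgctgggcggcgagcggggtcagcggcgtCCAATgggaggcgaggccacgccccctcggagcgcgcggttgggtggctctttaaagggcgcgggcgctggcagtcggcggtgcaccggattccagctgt
Tyms: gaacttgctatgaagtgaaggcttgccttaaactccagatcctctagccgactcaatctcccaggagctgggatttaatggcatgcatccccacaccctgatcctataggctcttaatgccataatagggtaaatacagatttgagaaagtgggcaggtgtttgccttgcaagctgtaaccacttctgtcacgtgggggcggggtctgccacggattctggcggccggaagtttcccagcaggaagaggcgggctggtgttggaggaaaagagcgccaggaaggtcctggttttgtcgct
Rfc3: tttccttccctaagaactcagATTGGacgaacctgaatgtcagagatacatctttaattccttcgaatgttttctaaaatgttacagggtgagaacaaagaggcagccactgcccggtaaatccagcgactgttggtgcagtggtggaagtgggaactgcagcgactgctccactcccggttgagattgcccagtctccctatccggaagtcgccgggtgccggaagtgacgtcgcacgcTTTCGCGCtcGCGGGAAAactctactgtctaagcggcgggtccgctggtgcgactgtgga
Mcm6: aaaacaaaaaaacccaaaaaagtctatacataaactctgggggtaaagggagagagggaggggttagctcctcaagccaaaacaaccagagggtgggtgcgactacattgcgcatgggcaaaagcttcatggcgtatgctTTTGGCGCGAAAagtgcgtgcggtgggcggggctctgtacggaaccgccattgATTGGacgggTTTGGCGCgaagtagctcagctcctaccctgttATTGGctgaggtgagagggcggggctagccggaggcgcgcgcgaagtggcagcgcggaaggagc

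Transcript abundance was compared between each pair of lines on log2(TPM + 1), a scale that understates changes of low genes, and a gene was called at an adjusted p below 0.05 over the 11003 genes whose mean reached 1 TPM. All 46 members passed that filter. In Abl.2 against Abl.3, 19 members fell and 2 rose in Abl.2, where 14.0% of all genes were called lower and 25.9% higher, 39.8% in all. In Abl.2 against Abl.4, 18 members fell and none rose, where 18.4% of all genes were called lower and 15.0% higher, 33.5% in all. That count of 0 higher members comes from limma. At an unadjusted p below 0.05 it was also 0, and edgeR and DESeq2 on allelic counts summed over both alleles gave 0 as well for the 40 members they cover. Without Abl.4 replicate 2, Orc4 was called higher in Abl.2 than in Abl.4 (0.80, limma adjusted p = 0.0408). Orc5 had an unadjusted p below 0.05 in that direction without Abl.2 replicate 1, with quantile normalisation and with the replicate block, and was called in none of these. In Abl.3 against Abl.4, 9 members were called, 6 lower and 3 higher in Abl.3, where 38.1% of all genes were called, 26.8% lower and 11.3% higher. With quantile normalisation the counts were 6 lower and 3 higher, where 16.0% of all genes were called lower. Of all genes called in that fit, 52.0% were higher in Abl.3. With edgeR on summed counts, 5 of 40 members were lower and 5 higher, where 19.8% of all genes were called lower. Here 46.7% of all genes called were higher in Abl.3. The share of members called in at least 1 pair, 27 of 46 or 58.7%, was close to the 59.7% of all genes. Without Abl.2 replicate 1, 11 members were called in Abl.2 against Abl.3 and 10 in Abl.2 against Abl.4. Without Abl.3 replicate 1 or replicate 2, 13 and 12 were called in Abl.2 against Abl.3, and 4 and 2 in Abl.3 against Abl.4. Without Abl.4 replicate 2, 4 were called in Abl.3 against Abl.4.

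Many single calls depended on the fit, and the values below are those of limma without a block unless another fit is named. In Abl.2 against Abl.3, 10 of 21 calls were kept under every alternative fit that covers the member (summed counts cover 40), and those of Dbf4, Gins2, Gins4, Lig1, Mcm4, Orc6, Pola1, Rfc2, Rfc5, Rpa2 and Rpa3 were lost under at least 1. In Abl.2 against Abl.4, 9 of 18 were kept, and Gins3, Gins4, Mcm10, Orc6, Pold3, Pole2, Rfc1, Rfc5 and Rpa1 were lost under at least 1. In Abl.3 against Abl.4 Lig1 was kept, and Mcm4, Orc5, Pola1, Rfc1, Rfc4, Rpa1, Rrm1 and Tyms were lost under at least 1. Other members were called only under an alternative. In Abl.2 against Abl.3 these were Cdc7, Fen1, Gins1, Mcm7, Mcm10, Orc5, Pcna, Pola2 and Pole, in Abl.2 against Abl.4 Cdc7, Cdt1, Fen1, Gins2, Mcm6, Mcm7, Orc4, Pola2, Pole, Rfc4, Rpa3 and Rrm1, and in Abl.3 against Abl.4 Dbf4, Gmnn, Mcm2, Mcm6, Orc3, Pole, Pole2 and Prim2. When limma was given the replicate number as a block, no call was lost and members were gained in each pair. In Abl.2 against Abl.3 these were Mcm10, Pcna and Pola2, and in Abl.2 against Abl.4 Cdt1, Fen1, Gins2, Mcm6, Mcm7, Pola2, Rfc4, Rpa3 and Rrm1, all lower in Abl.2. In Abl.3 against Abl.4 they were Gmnn, higher in Abl.3, and Mcm2, Mcm6 and Orc3, lower in Abl.3.

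The 3 pairs share lines, so their counts are not independent of each other. The libraries of Abl.2 lay below both libraries of Abl.3 for 29 members, where 28.7% of all genes did so, and below both of Abl.4 for 34 members, where 35.7% did so. They lay above both libraries of Abl.3 for 6 members, against 44.6% of all genes, and above both of Abl.4 for 1 member, against 31.6%. The libraries of Abl.3 were below both of Abl.4 for 16 members and above both for 8, where 46.4% and 23.5% of all genes were. A set of 14 members (Orc6, Cdc6, Gmnn, Cdc45, Gins3, Gins4, Prim2, Pole2, Rfc3, Rfc5, Rpa2, Lig1, Rrm2 and Tyms) was called lower in Abl.2 than in both other lines, 30.4% of members against 7.83% of all genes. None was called higher in Abl.2 than in both, against 9.3% of all genes. Without Abl.2 replicate 1, calls against both lines held only for Cdc6, Gmnn, Cdc45, Prim2, Rfc3, Rpa2, Rrm2 and Tyms of those 14. In that fit the share of all genes called lower in Abl.2 than in both lines was smaller as well. The median log2 difference of the 46 members was -0.263 in Abl.2 minus Abl.3 and -0.276 in Abl.2 minus Abl.4, where the medians of all genes were 0.099 and -0.027. In Abl.3 minus Abl.4 the members' median was -0.058 and that of all genes -0.146. On summed counts the members' median in this pair changed sign, at 0.081 with edgeR and 0.088 with DESeq2. Those of all genes were -0.005 and 0.003. With quantile normalisation, which moves the medians of all genes to -0.003, 0.035 and 0.031, the members' medians were -0.319, -0.263 and -0.003. In bulk RNA, fewer cells in S phase and less RNA of these genes per cell cannot be told apart.

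**Figure D1:**
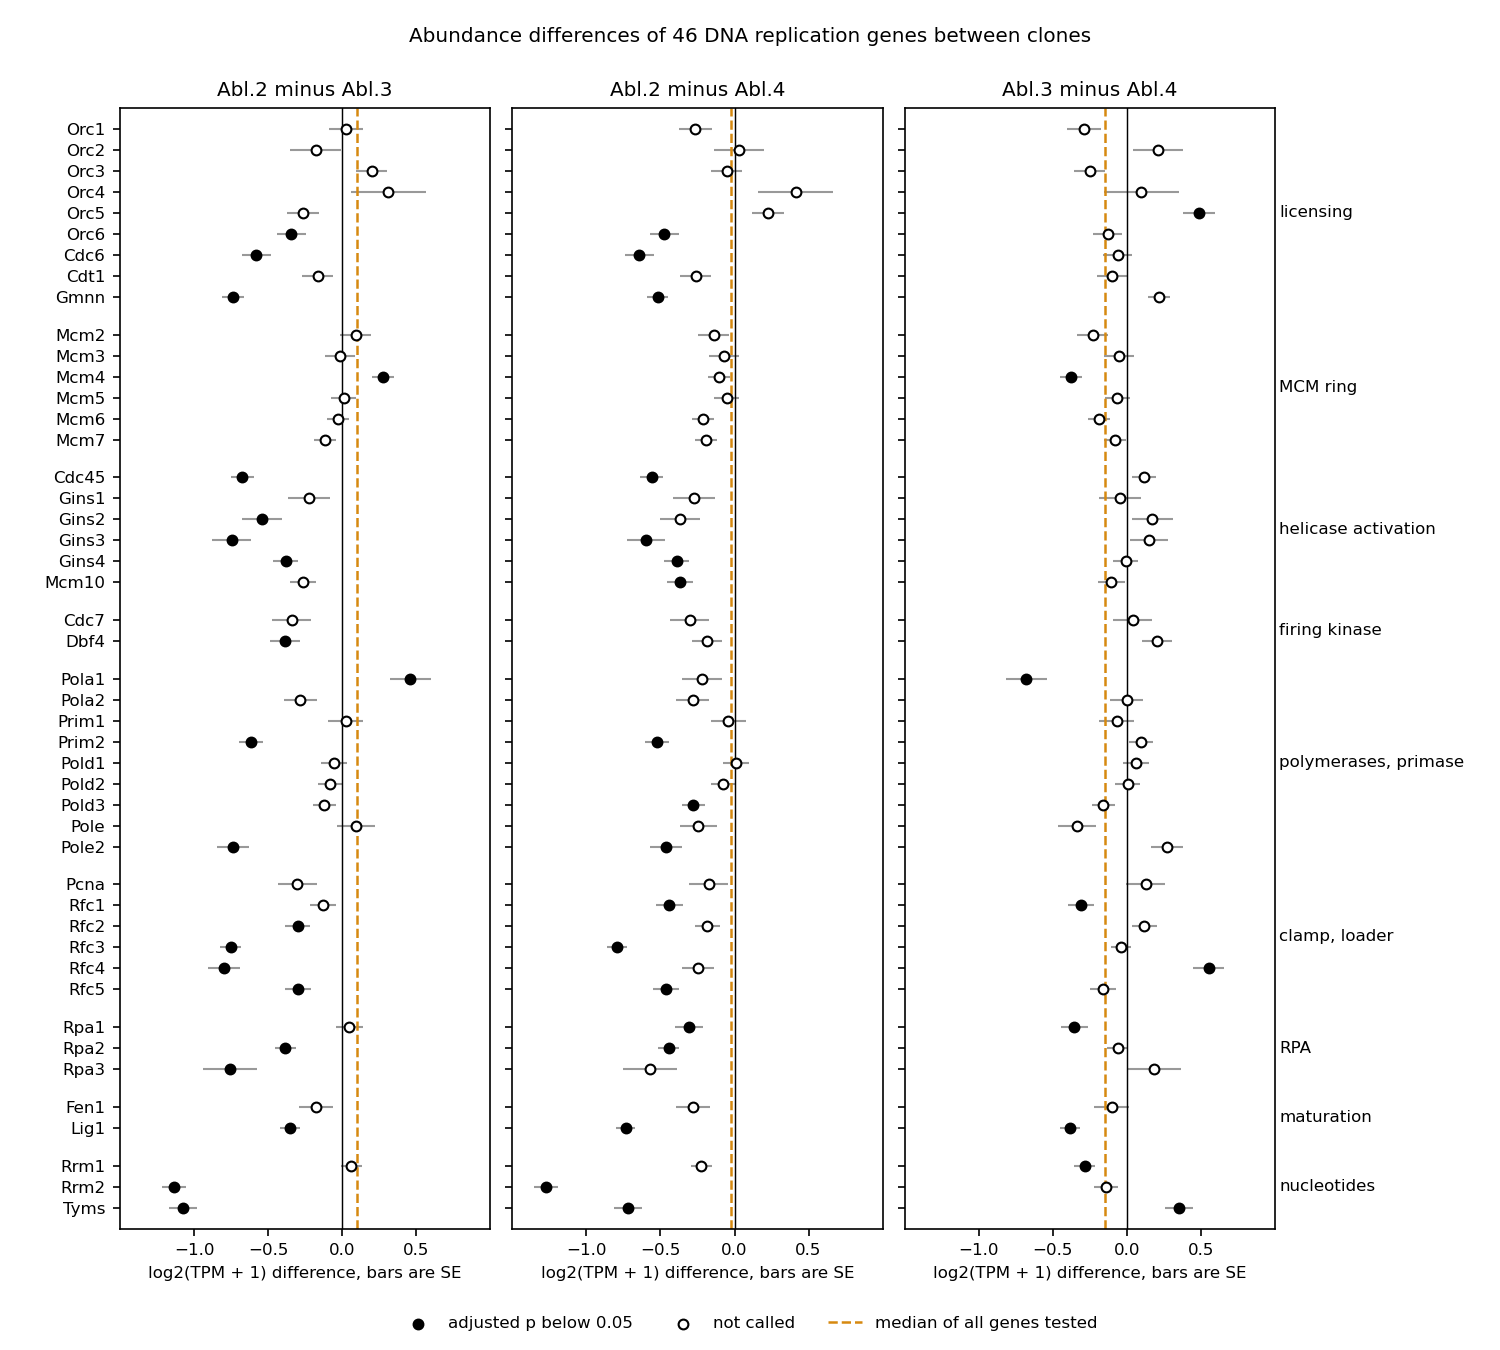
Log2(TPM + 1) difference of each of the 46 members for the 3 pairs of lines, grouped by role; bars are standard errors, filled points are called by limma at an adjusted p below 0.05, and the dashed line is the median of the 11003 genes tested. In both panels with Abl.2 most points lie left of the dashed line, with Rrm2 farthest left at -1.13 and -1.27, whereas the 6 MCM ring genes run from -0.11 to 0.27 and from -0.21 to -0.054.

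The largest fall of Abl.2 in both pairs was that of Rrm2, a nucleotide supply gene. Rrm2 encodes the regulatory subunit of ribonucleotide reductase, the enzyme that makes deoxynucleotides, and lies at chr12:24708241-24714146 on the plus strand. It was at 264.98 and 287.63 TPM in the Abl.2 libraries, 599.72 and 614.55 TPM in Abl.3, and 703.45 and 637.19 TPM in Abl.4. The Abl.2 libraries were far below all others, and the mean was 0.455 of that in Abl.3 and 0.412 of that in Abl.4. The log2 difference was -1.13 (SE 0.082, limma adjusted p = 0.000149) from Abl.3 and -1.27 (SE 0.082, adjusted p = 9.85e-05) from Abl.4. Abl.3 and Abl.4 did not pass the test between each other (-0.14, adjusted p = 0.218).

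Tyms, thymidylate synthase, which makes dTMP from dUMP, was at 233.32 and 259.38 TPM in Abl.2, 489.16 and 550.84 TPM in Abl.3 and 389.33 and 423.83 TPM in Abl.4. The 3 lines did not overlap, and all 3 differences were called. They were -1.07 (SE 0.096, limma adjusted p = 0.000386) for Abl.2 minus Abl.3, -0.72 (adjusted p = 0.00208) for Abl.2 minus Abl.4 and 0.35 (adjusted p = 0.029) for Abl.3 minus Abl.4. The last of these was no longer called after quantile normalisation, with no filter on low values or without any 1 library. On summed counts DESeq2 gave -0.48 for Abl.2 minus Abl.4. Rrm1, the catalytic subunit of the same reductase as Rrm2, behaved differently: it was at 205.91 and 220.40 TPM in Abl.2, 205.37 and 202.63 TPM in Abl.3 and 250.44 and 247.51 TPM in Abl.4. Abl.2 was not called against either line (0.06 and -0.22) by limma without a block. Abl.2 was called lower than Abl.4 with the replicate block (limma adjusted p = 0.0278), with quantile normalisation and with no filter on low values. Abl.3 was lower than Abl.4 by limma (-0.29, adjusted p = 0.0204). On summed counts that difference of Abl.3 was smaller, at -0.097 with DESeq2 (adjusted p = 0.437), and edgeR did not call it either (adjusted p = 0.329). The Rrm2 to Rrm1 TPM ratio was 1.3 ± 0.0128 (SD, n = 2 libraries) in Abl.2, 2.98 ± 0.0797 in Abl.3 and 2.69 ± 0.166 in Abl.4.

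Of the 6 genes of the clamp and its loader, 4 fell in Abl.2 against Abl.3 and 3 against Abl.4. Of all genes, 14.0% and 18.4% were called lower in these pairs. Rfc3, a small subunit of the loader at chr5:151642756-151651242, was at 101.20 and 98.78 TPM in Abl.2, 172.98 and 165.48 TPM in Abl.3 and 176.06 and 171.92 TPM in Abl.4. Abl.2 was separate from the other lines, which overlapped each other, and the differences were -0.75 (SE 0.07, limma adjusted p = 0.00044) and -0.79 (SE 0.07, adjusted p = 0.000356). Rfc4, another small subunit, was highest in Abl.3. It was at 225.92 and 258.04 TPM in Abl.3 against 127.77 and 150.13 TPM in Abl.2 and 162.23 and 166.72 TPM in Abl.4. Abl.2 was lower than Abl.3 by -0.80 (limma adjusted p = 0.00188), and Abl.3 was higher than Abl.4 by 0.55 (adjusted p = 0.00868), while Abl.2 and Abl.4 did not pass the test (-0.25, adjusted p = 0.124) except with the replicate block (adjusted p = 0.0333). Both Abl.2 libraries were below all others here as well. An exon of Rfc4 overlaps one of Eif4a2, and whether the authors' counting used strand is not given in the sources used here. Such an overlap with another gene exists for 16 members. Among those called lower in Abl.2 than in both lines they are Orc6, Cdc45, Rfc5, Pole2 and Lig1.

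Rfc5 was lower in Abl.2 than in both lines (-0.30 and -0.46), with a larger difference from Abl.3 on summed allelic counts (-0.63 with edgeR), and Rfc2 only passed against Abl.3 (-0.30, with -0.18 against Abl.4). The large subunit Rfc1 passed against Abl.4 (-0.44) and not against Abl.3 (-0.13). On summed counts it did not pass against Abl.4 (-0.20, adjusted p = 0.0735 with edgeR and 0.0857 with DESeq2). Its call in Abl.3 minus Abl.4 (-0.31, limma adjusted p = 0.0342) turned to 0.008 and 0.016 with edgeR and DESeq2 on summed allelic counts. Pcna, the clamp itself, was at 364.07 and 450.00 TPM in Abl.2, 475.55 and 524.08 TPM in Abl.3 and 418.84 and 497.89 TPM in Abl.4, and no pair passed the test. With the replicate block Abl.2 was called lower than Abl.3 (-0.30, limma adjusted p = 0.0108). The same call was made for Pcna on summed counts, at -0.427 with edgeR (adjusted p = 0.009) and -0.431 with DESeq2. Its processed pseudogene Pcna-ps2 was listed at 68.92 to 111.78 TPM, so reads of the Pcna pair could have been divided between them.

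In licensing, 3 of 9 genes fell in Abl.2 against each other line and none rose. Of all genes, 14.0% were called lower and 25.9% higher against Abl.3, and 18.4% lower and 15.0% higher against Abl.4. Gmnn, which encodes geminin, the inhibitor of Cdt1, was at 146.75 and 150.02 TPM in Abl.2, 246.03 and 249.01 TPM in Abl.3 and 222.49 and 204.19 TPM in Abl.4. Every Abl.2 library was below every other, with differences of -0.73 (SE 0.074, limma adjusted p = 0.00061) and -0.52 (adjusted p = 0.00271). Cdc6, the ATPase that helps load the MCM ring, was at 27.53 and 29.50 TPM in Abl.2, 43.15 and 43.07 TPM in Abl.3 and 48.23 and 42.06 TPM in Abl.4. It also separated Abl.2 from both lines, by -0.58 and -0.64. Orc6 followed with -0.34 and -0.47, whereas Cdt1, the partner of Cdc6, did not pass (-0.17 and -0.26) except against Abl.4 with the replicate block (limma adjusted p = 0.0212).

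The other ORC genes were not called between Abl.2 and either line. Orc5 was at 28.18 and 32.84 TPM in Abl.2, 34.96 and 38.57 TPM in Abl.3 and 26.18 and 25.68 TPM in Abl.4, and was higher in Abl.3 than in Abl.4 by 0.49 (limma adjusted p = 0.0144). Per length, Orc1 was the least abundant ORC gene in each line, with means of 9.98, 9.79 and 12.2 TPM, and Orc3 the most abundant, with 84.8, 73.5 and 87.7 TPM. Within a library Orc3 was 7.09 to 9.51 times Orc1.

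None of the 6 MCM ring genes was called lower in Abl.2 by limma on all 6 libraries without a block or quantile normalisation. Their differences ran from -0.11 (Mcm7) to 0.27 (Mcm4) against Abl.3 and from -0.21 (Mcm6) to -0.054 (Mcm5) against Abl.4. Mcm4 was at 140.73 and 145.63 TPM in Abl.2, 123.12 and 113.54 TPM in Abl.3 and 154.11 and 153.91 TPM in Abl.4. Abl.3 was the low line here: Abl.2 was higher by 0.27 (SE 0.075, limma adjusted p = 0.0283) and Abl.3 lower than Abl.4 by -0.38 (SE 0.075, adjusted p = 0.00955). The first of these calls was lost with edgeR and DESeq2 on summed allelic counts, at 0.16 and 0.15. Mcm7 was at 443.06 and 430.41 TPM in Abl.2, 489.67 and 456.46 TPM in Abl.3 and 516.19 and 482.55 TPM in Abl.4. Its Abl.2 libraries were below all others. It did not pass by limma (-0.11 and -0.19), but on summed allelic counts it was called lower in Abl.2 than in both lines, by -0.29 and -0.23 with edgeR (adjusted p = 0.0143 and 0.0498) and by -0.30 and -0.22 with DESeq2. Mcm6 was at 396.17 and 385.71 TPM in Abl.2, 397.35 and 399.96 TPM in Abl.3 and 475.25 and 433.33 TPM in Abl.4. Its Abl.2 libraries were the lowest as well, and no pair passed by limma on all 6 libraries without a block or quantile normalisation. With quantile normalisation limma called Mcm6 lower in Abl.2 than in Abl.4 (-0.257, adjusted p = 0.0314). Abl.3 was called lower than Abl.4 in that fit as well (-0.282, adjusted p = 0.0239). Without Abl.4 replicate 2 the Mcm6 difference in Abl.2 minus Abl.4 was -0.281. On summed counts Mcm6 was called lower in Abl.2 than in Abl.4 (-0.26 with edgeR, adjusted p = 0.0328, and -0.25 with DESeq2) and not than in Abl.3 (-0.20 with both). With the replicate block limma called both Mcm7 (adjusted p = 0.0286) and Mcm6 (adjusted p = 0.0311) lower in Abl.2 than in Abl.4. Mcm3 was at 387.63 and 374.62 TPM in Abl.2, 406.42 and 365.56 TPM in Abl.3 and 433.06 and 369.94 TPM in Abl.4, so that all lines overlapped. The 6 subunits assemble in equal numbers, but the transcript levels were unequal in the same way in each line. Mcm4 was the lowest, with means of 143, 118 and 154 TPM, and Mcm7 the highest, with 437, 473 and 499 TPM.

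Of the 6 factors that turn the ring into an active helicase, 4 fell in Abl.2 in each pair. Of all genes, 14.0% were called lower against Abl.3 and 18.4% against Abl.4. The range of the 6 factors against Abl.3 was -0.75 (Gins3) to -0.23 (Gins1). Cdc45, which joins the MCM ring and GINS in the moving helicase, was at 78.48 and 75.08 TPM in Abl.2, 127.25 and 119.24 TPM in Abl.3 and 116.75 and 110.61 TPM in Abl.4. The Abl.2 libraries were the lowest, by -0.68 (SE 0.078, limma adjusted p = 0.00104) and -0.56 (adjusted p = 0.00249). Gins3, a GINS subunit, was at 13.50 and 16.25 TPM in Abl.2, 26.44 and 24.66 TPM in Abl.3 and 24.67 and 21.31 TPM in Abl.4. The GINS complex holds its subunits in equal numbers, and Gins3 was its least abundant transcript in each line while Gins2 was the most abundant, 7.36 to 10.5 times higher within a library. Gins4 also fell against both lines (-0.38 and -0.39), Gins2 against Abl.3 (-0.54, or -0.36 with edgeR on summed counts) and Mcm10 against Abl.4 (-0.37). Gins1 passed in neither pair by limma. On summed counts it was called lower in Abl.2 than in Abl.3 (-0.455 with edgeR, adjusted p = 0.0398, and -0.46 with DESeq2). With the replicate block and on summed counts, Gins2 was also called lower in Abl.2 than in Abl.4 and Mcm10 lower than in Abl.3.

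For the firing kinase, Cdc7 was at 14.39 and 15.21 TPM in Abl.2, 19.87 and 18.14 TPM in Abl.3 and 16.48 and 20.68 TPM in Abl.4 and passed in no pair. Cdc7 was called lower in Abl.2 than in both lines without Abl.4 replicate 1 (-0.34 and -0.46, limma adjusted p = 0.0479 and 0.0477). Against Abl.3 it was also called without Abl.4 replicate 2 and with quantile normalisation. Its activating subunit Dbf4 was lower in Abl.2 than in Abl.3 (-0.38, limma adjusted p = 0.0252) and not called against Abl.4 (-0.18). Both genes had their lowest means in Abl.2, at 14.8 and 54.3 TPM.

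Of the 9 polymerase and primase genes, Prim2, Pole2, Pold3 and Pola1 were called in at least 1 pair, where 59.7% of all genes were. Prim2, the large primase subunit, was at 51.35 and 53.54 TPM in Abl.2, 83.25 and 78.68 TPM in Abl.3 and 78.21 and 73.17 TPM in Abl.4, lower in Abl.2 by -0.62 (SE 0.081, limma adjusted p = 0.00177) and -0.52 (adjusted p = 0.00386). Pole2, the second subunit of polymerase epsilon, was at 8.50 and 8.89 TPM in Abl.2, 15.86 and 14.49 TPM in Abl.3 and 12.50 and 12.26 TPM in Abl.4. Its 3 lines were separate, and Abl.2 fell by 0.74 against Abl.3 and by 0.47 against Abl.4 on the log2 scale. The difference from Abl.4 was -0.76 with edgeR on summed counts, and its call was lost without any 1 of the libraries of Abl.2 or Abl.4. Pold3, a subunit of polymerase delta, was at 51.55 and 48.95 TPM in Abl.2, 54.83 and 54.55 TPM in Abl.3 and 60.19 and 62.14 TPM in Abl.4, and was called only between Abl.2 and Abl.4 (-0.28, limma adjusted p = 0.034). The catalytic subunits Pold1 (-0.054 and 0.007) and Pole (0.092 and -0.24) were not called, nor were Pold2, Pola2 and Prim1. On summed counts Pole was called higher in Abl.2 than in Abl.3 (0.279, edgeR adjusted p = 0.0255, and 0.275 with DESeq2). It was also called lower in Abl.3 than in Abl.4 (-0.386, edgeR adjusted p = 0.006). Without Abl.4 replicate 1 the Pole difference in Abl.2 minus Abl.4 was -0.427. With the replicate block Pola2 was called lower in Abl.2 than in both lines (-0.28 in each, limma adjusted p = 0.0291 and 0.0323), and so it was without Abl.4 replicate 2 (-0.28 and -0.43).

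Pola1, the catalytic subunit of polymerase alpha, is on the X chromosome (chrX:93304767-93632155, minus strand) and went the other way against Abl.3. Its difference in Abl.2 minus Abl.4 was -0.218 and was not called. It was at 31.45 and 37.42 TPM in Abl.2, 23.71 and 25.62 TPM in Abl.3 and 36.11 and 44.45 TPM in Abl.4. Abl.3, the line labelled male, was below the other lines, which overlapped each other. Abl.2 was higher than Abl.3 by 0.46 (SE 0.136, limma adjusted p = 0.0368) and Abl.3 lower than Abl.4 by -0.68 (SE 0.136, adjusted p = 0.0101). The first of these was not called after quantile normalisation (0.30) or with edgeR on summed counts (0.39). The median log2 difference of 356 X-linked genes was 0.098 in Abl.2 minus Abl.3 and -0.19 in Abl.3 minus Abl.4, near the 0.099 and -0.146 of all genes.

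In the single-strand binding protein RPA, Rpa2 was at 217.21 and 206.28 TPM in Abl.2, 276.17 and 277.05 TPM in Abl.3 and 297.50 and 279.95 TPM in Abl.4. It fell in Abl.2 against both lines (-0.38, limma adjusted p = 0.00692, and -0.45, adjusted p = 0.00435). On summed allelic counts the difference from Abl.3 was -0.70 with edgeR and -0.71 with DESeq2. Rpa3 was called against Abl.3 (-0.76) and not against Abl.4 (-0.57, limma adjusted p = 0.0536). The call against Abl.4 was made with the replicate block (adjusted p = 0.00326), with a filter at 5 TPM, without Abl.2 replicate 2 and with edgeR on summed counts. Rpa1 was called against Abl.4 (-0.31) and not against Abl.3 (0.048). The call was lost with DESeq2 on summed counts (-0.25, adjusted p = 0.0524), with no filter on low values and in 5 of the 6 fits that left out a library. Of the 2 maturation genes, Lig1, the ligase that seals Okazaki fragments, had an ordered pattern. It was at 228.67 and 232.64 TPM in Abl.2, 288.97 and 299.93 TPM in Abl.3 and 386.76 and 382.23 TPM in Abl.4. The 3 lines were separate and each pair was called, with differences of -0.35 (limma adjusted p = 0.00718), -0.73 (adjusted p = 0.00039) and -0.38 (adjusted p = 0.00571). On summed counts the last was -0.24 with both edgeR and DESeq2. Fen1, the flap nuclease that acts before Lig1, was not called by limma in any pair (-0.18, -0.28 and -0.10). It was called lower in Abl.2 than in Abl.4 with the replicate block (adjusted p = 0.0408) and without Abl.4 replicate 2, and lower than in Abl.3 with DESeq2 on summed counts (-0.31, adjusted p = 0.0341).

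**Figure D2:**
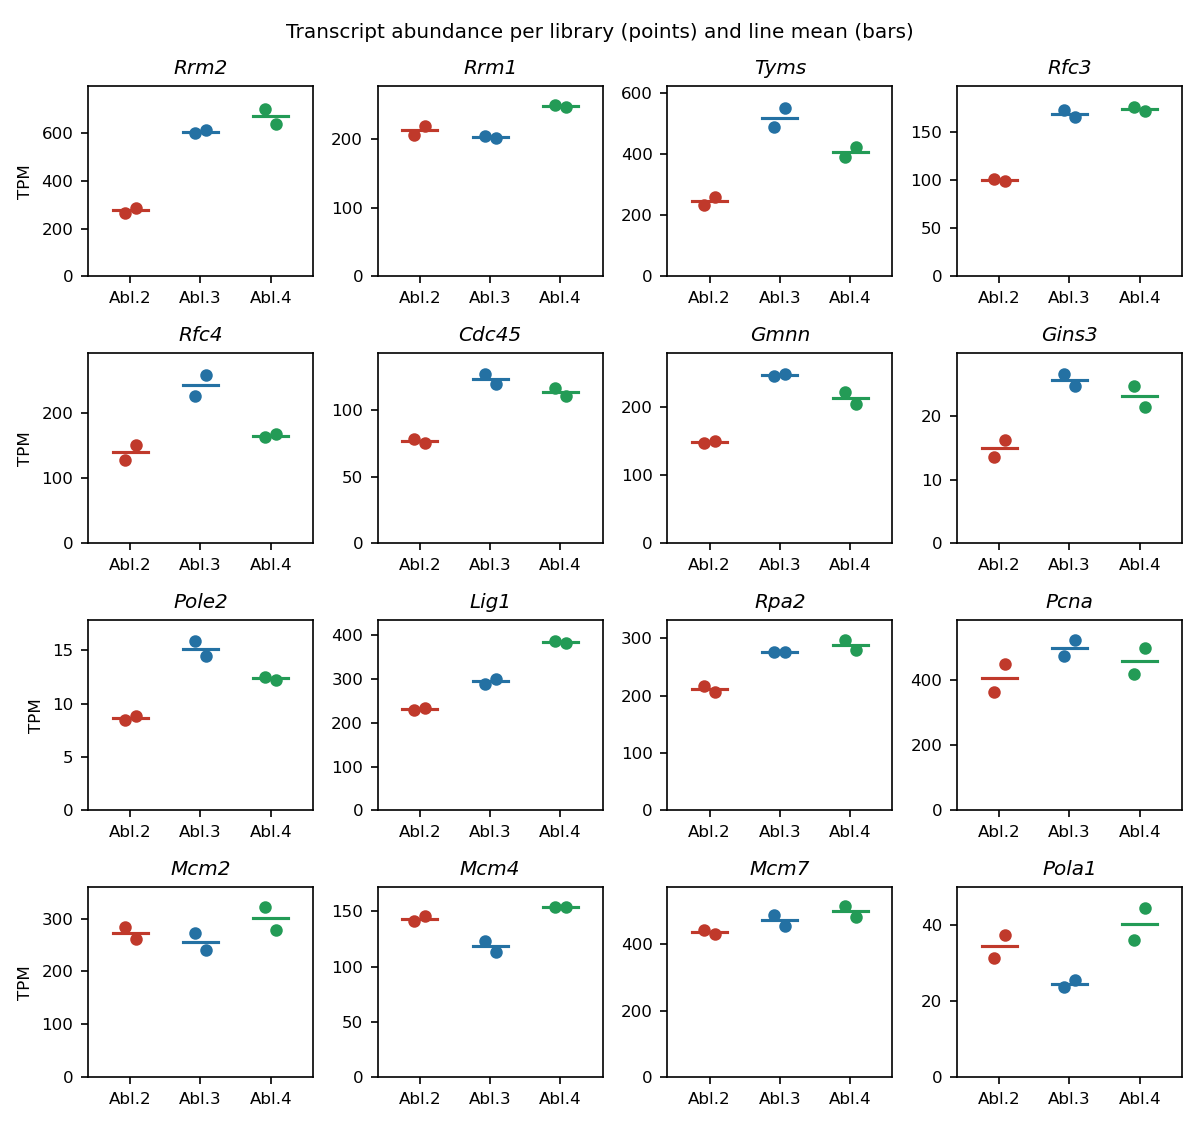
TPM of 16 members in each library (points) with the mean of each line (horizontal bars), on axes that start at 0. Rrm2, Tyms, Rfc3, Rfc4, Cdc45, Gmnn, Gins3, Pole2, Lig1 and Rpa2 have both Abl.2 libraries below all others, and so does Mcm7 by a smaller distance, while Rrm1, Mcm2, Mcm4, Pcna and Pola1 show other orders, such as Mcm4 with both Abl.3 libraries lowest at 123.12 and 113.54 TPM.

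Summed over the 46 members, the level was 6878 and 6988 TPM in Abl.2, 8548 and 8478 TPM in Abl.3 and 8907 and 8512 TPM in Abl.4. Without Rrm2 and Tyms these sums were 6380 and 6441, 7460 and 7313, and 7814 and 7451 TPM, so the Abl.2 libraries remained the lowest. As shares of all TPM the members took 0.688% and 0.699%, 0.855% and 0.848%, and 0.891% and 0.851%.

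Promoter matches can be set beside this pattern. An E2F-type match was present in 5 of 11 matched members that were lower in Abl.2 than in both lines (Cdc6, Gins3, Pole2, Rfc3 and Lig1) and in 10 of the other 27. Of the 5 ring genes with a promoter entry, Mcm3, Mcm5, Mcm6 and Mcm7 held a match. Limma on all 6 libraries without a block or quantile normalisation called none of these lower in Abl.2. On summed counts Mcm7 was so called against both lines and Mcm6 against Abl.4. With the replicate block both were so called against Abl.4, and with quantile normalisation Mcm6 was. Rrm2 and Tyms, the members with the largest falls against Abl.3 by limma, held no E2F-type match in the windows printed above. Summed counts do not cover Rrm2. With edgeR on these, Rpa3 (-1.0, no match) and Pole2 (-0.963, with a match) were among members that fell further than Tyms (-0.842). Against Abl.4 by limma, Rfc3 (-0.79) and Lig1 (-0.73), which hold a match, were next after Rrm2 (-1.27), ahead of Tyms (-0.72).

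Other genes of replication and the cell cycle were read from fixed lists. For comparison, limma called 14.0% of all genes lower and 25.9% higher in Abl.2 than in Abl.3. Against Abl.4 these shares were 18.4% and 15.0%. Of 26 accessory replication factors, 8 were lower and 4 higher in Abl.2 than in Abl.3, and 11 lower and 3 higher than in Abl.4. Pclaf, a PCNA-binding protein, was at 118.65 and 139.11 TPM in Abl.2, 238.85 and 282.34 TPM in Abl.3 and 276.51 and 399.41 TPM in Abl.4, with differences of -1.01 and -1.36. The largest rise was Mcm9, at 28.85 and 27.95 TPM in Abl.2 against 13.65 and 13.73 TPM in Abl.3 and a mean of 18.8 TPM in Abl.4. Of 13 further nucleotide supply genes, 4 were lower and 3 higher in Abl.2 than in Abl.3 and 3 lower and 3 higher than in Abl.4. Samhd1, which degrades deoxynucleotides, was the extreme of that list, at 18.39 and 18.91 TPM in Abl.3 against 42.21 to 52.74 TPM in the libraries of the other lines. Of 11 chromatin assembly genes, 4 were lower and 3 higher in Abl.2 than in Abl.3 and 3 lower and 1 higher than in Abl.4. Slbp, which binds the stem-loop of histone mRNAs, had the largest fall (-0.79 and -0.75).

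Of 16 E2F and RB family genes, 1 was lower and 3 were higher in Abl.2 than in Abl.3, while 9 were lower and 1 higher than in Abl.4. In Abl.3 against Abl.4, 9 of the 16 were lower and none higher, where 26.8% of all genes were lower and 11.3% higher. Rb1 was at 17.55 and 20.49 TPM in Abl.2, 21.53 and 15.91 TPM in Abl.3 and 32.91 and 54.06 TPM in Abl.4. Of 13 S-phase kinase and checkpoint genes, 3 were lower and 1 higher in Abl.2 than in Abl.3 and 4 lower and none higher than in Abl.4. Of 22 G2/M genes, 2 were lower and 3 higher than in Abl.3, where 14.0% and 25.9% of all genes were. Against Abl.4, 8 of these genes were lower and 2 higher, where 18.4% and 15.0% of all genes were. Cdk1 had the largest rise in that list, at 694.53 and 789.24 TPM in Abl.2 against 500.54 to 521.92 TPM elsewhere, and lies on chromosome 10. With the replicate block, G2/M genes lower in Abl.2 than in Abl.3 were 4, S-phase kinase and checkpoint genes higher than in Abl.3 were 3, and chromatin assembly genes lower than in Abl.4 were 5.

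**Figure D3:**
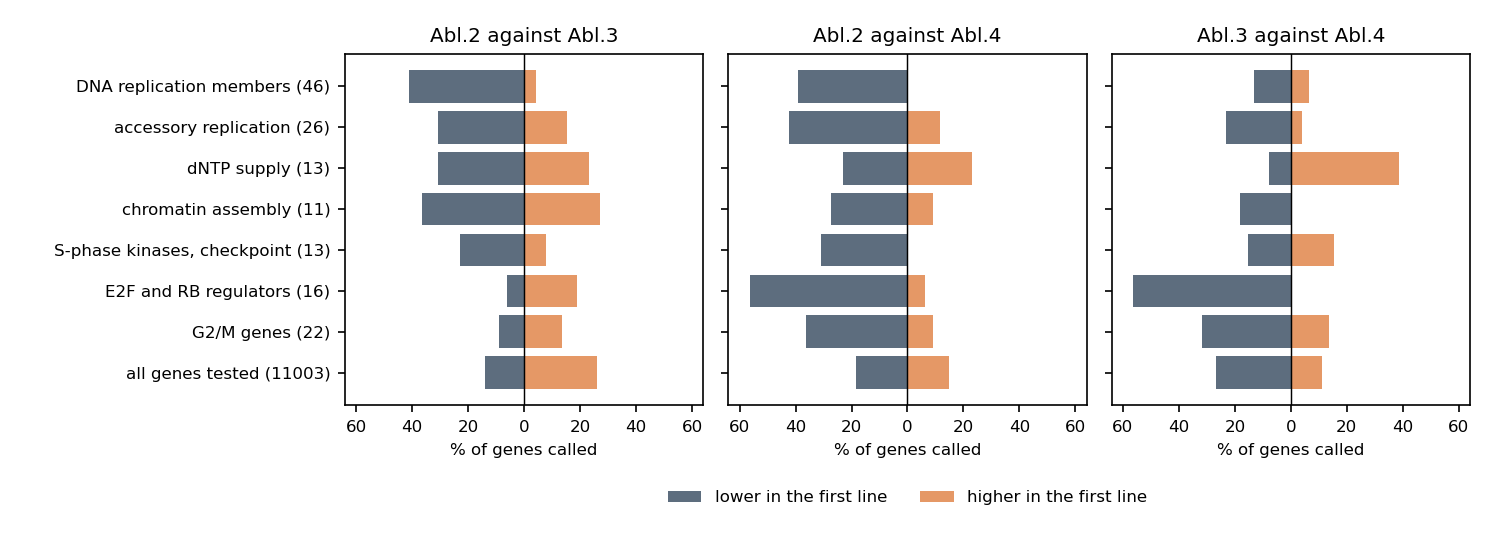
Percentage of genes called by limma at an adjusted p below 0.05, lower (left bars) or higher (right bars) in the first line of each pair, for the 46 members, 6 fixed lists of related genes and all 11003 genes tested; numbers of genes are in brackets. The members, the accessory factors, nucleotide supply, chromatin assembly and the S-phase kinases have longer left bars than all genes in both pairs with Abl.2, while E2F and RB regulators and G2/M genes do so against Abl.4 and not against Abl.3.

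The allelic counts gave the maternal share of each of 40 members, the part of all its allelic counts that came from the maternal allele. Mcm3, Gmnn, Gins3, Cdc7, Pold3 and Rrm2 are not analysed here at the level of alleles. All 40 had at least 20 counts in each library and entered the edgeR quasi-likelihood test among 8702 genes. Their depth was above that of most genes, with a median of 4964 counts per member and library against 1020 for all genes tested. An allelic imbalance, a departure from equal counts, was called for 21 members in Abl.2, 17 in Abl.3 and 21 in Abl.4, where 49.1%, 45.1% and 39.9% of all genes were called. The maternal allele was the higher one for 12 of these members in Abl.2 and the lower one for 9, where 24.7% and 24.4% of all genes were called in these directions. In Abl.3 it was higher for 7 and lower for 10, against 22.5% and 22.6%, and in Abl.4 higher for 11 and lower for 10, against 19.2% and 20.7%. These shares of members, 52.5%, 42.5% and 52.5%, were near or moderately above the background, and depth sets how small an imbalance can be called. By size, only 5, 3 and 2 members had a mean share outside 0.4 to 0.6, where 35.6%, 28.6% and 26.5% of all genes did. A mean share of at most 0.1 or at least 0.9 was found for 4 members in Abl.2, for 1 in Abl.3 and for 1 in Abl.4, where 13.8%, 6.62% and 6.03% of all genes had one. In the authors' deposited table of allelic fractions the interval excluded 0.5 for 17, 12 and 9 of the 40 members, against 38.2%, 27.2% and 22.9% of all genes with an estimate.

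Outside chromosomes 4, 10 and X, the mean shares of 35 members ran from 0.433 (Pole2) to 0.596 (Pole) in Abl.2, from 0.366 (Tyms) to 0.597 (Pold2) in Abl.3 and from 0.398 (Tyms) to 0.596 (Pold2) in Abl.4. The 2 libraries of a line differed by a median of 0.0105, 0.0184 and 0.0165 in share. A group of 10 members leaned to the same allele in all 3 lines by the edgeR test, 25% of the 40 where 20.5% of all genes did so. Mcm5, Gins2, Pold2, Pcna and Fen1 leaned to the maternal allele and Mcm2, Mcm6, Mcm7, Rpa1 and Tyms to the paternal allele. The calls of Mcm2, Rpa1 and Fen1 were lost in each line under at least 1 alternative. So were those of Mcm6 in Abl.2 and Abl.4 and that of Mcm7 in Abl.4. The authors' interval included 0.5 for Rpa1 in every line, for Mcm6 in Abl.2 and Abl.4, and for Mcm5, Mcm7 and Fen1 in Abl.4. In Abl.3 and Abl.4 Tyms leaned furthest of the 10, and in Abl.2 Pold2 did, with a mean share of 0.588. Tyms, on chromosome 5, had shares of 0.436 and 0.439 in Abl.2, 0.364 and 0.368 in Abl.3 and 0.401 and 0.395 in Abl.4. Those libraries do not overlap between lines, and all 3 differences between lines were called (0.071, 0.039 and -0.032 in share, edgeR adjusted p = 4.17e-05, 0.00464 and 0.0201). The calls of Abl.2 and of Abl.3 against Abl.4 were each lost under at least 1 alternative.

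**Figure D4:**
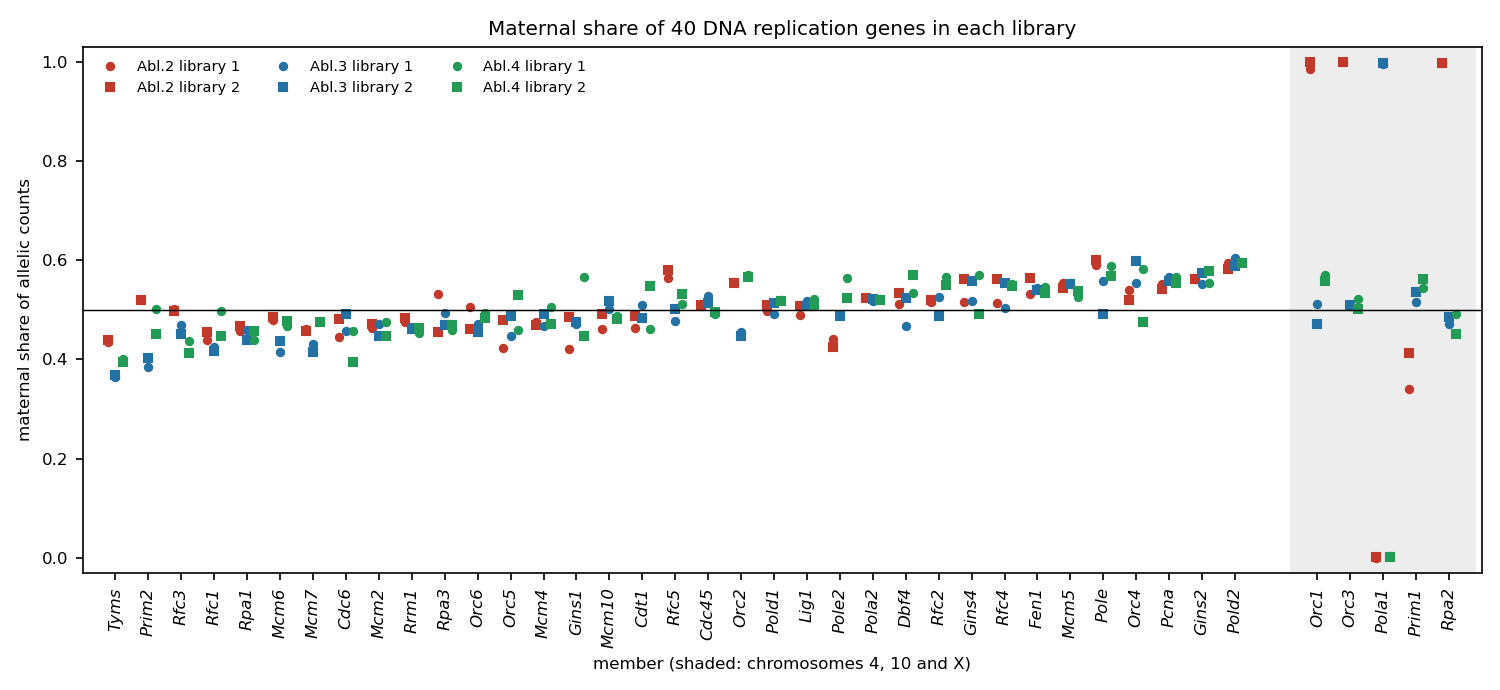
Maternal share of the allelic counts of 40 members in each of the 6 libraries, with the line at 0.5 for equal counts; members on chromosomes 4, 10 and X are shaded at the right. The 35 unshaded members lie between about 0.36 and 0.61, while Orc1, Orc3 and Rpa2 are above 0.98 in the Abl.2 libraries and Pola1 is near 0 in Abl.2 and Abl.4 and near 1 in Abl.3.

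A difference of allelic use between lines was called for 12 members in Abl.2 against Abl.3, 7 in Abl.2 against Abl.4 and 7 in Abl.3 against Abl.4. The background was 28.4%, 22.3% and 16.5%, so the members' shares of 30%, 17.5% and 17.5% were close to those of genes at large. By direction, the maternal share was higher in Abl.2 than in Abl.3 for 10 members and lower for 2, where 15.4% and 13.0% of all genes were called. Against Abl.4 it was higher in Abl.2 for 5 and lower for 2, beside 12.7% and 9.61%. It was higher in Abl.3 than in Abl.4 for 1 member and lower for 6, beside 8.53% and 7.93%. At least 1 pair was called for 15 members, 37.5% against 35.6%. The results below are therefore descriptions of which members differed. Without Abl.2 replicate 1, 4 and not 7 members were called in Abl.2 against Abl.4, and 13 and not 21 for the imbalance within Abl.2. The replicate block changed no call of a difference between lines. Of the imbalance calls it removed Pola2 and Pole2 in Abl.2, Orc2 and Rfc3 in Abl.3 and Dbf4, Pold1, Rfc4 and Rpa2 in Abl.4, and it added Mcm10 in Abl.2.

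The 3 members on chromosome 4 were read almost only from the maternal allele in Abl.2. Orc1, the largest ORC subunit (chr4:108579423-108614833), had 475 maternal and 7 paternal counts in 1 library and 577 and 0 in the other, the last allowing a paternal share of up to 0.52%. Orc3 (chr4:34570796-34614944) had 441 and 652 maternal counts and no paternal count, which allows up to 0.68% and 0.46%. These limits, and the intervals below, cover counting error only. Rpa2 (chr4:132768332-132778752) had 14463 and 17103 maternal and 35 and 32 paternal counts, a paternal share of 0.241% and 0.187%. In the other lines all 3 used both alleles. Orc1 had shares of 0.512 and 0.471 in Abl.3, and of 0.571 and 0.559 in Abl.4. Orc3 stood at 0.508 and 0.511 in Abl.3 with 0.522 and 0.502 in Abl.4, while Rpa2 stood at 0.471 and 0.486 in Abl.3 with 0.491 and 0.451 in Abl.4. The median share of 554 chromosome 4 genes was 0.998 in both Abl.2 libraries and 0.5 to 0.509 in the other lines, close to the shares of these 3 members.

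The level of Orc1 and Orc3 in Abl.2 was not called different from either line, at 10.24 and 9.71 TPM for Orc1 and 77.36 and 92.34 TPM for Orc3. In Abl.3 they were at 9.25 and 10.33 TPM and at 70.66 and 76.43 TPM, and in Abl.4 at 12.00 and 12.36 TPM and at 87.71 and 87.67 TPM. In CPM, counts scaled to the allelic total of the library, the maternal allele of Orc3 gave 19.4 and 24.3 in Abl.2 and 9.96 to 11.9 in the other libraries, and that of Orc1 20.9 and 21.5 against 11.8 to 14.6. The maternal output of Rpa2 was 637 and 636 CPM in Abl.2 against 418 to 509 elsewhere, a ratio of 1.29 to Abl.3 and 1.42 to Abl.4. Its paternal output was 1.54 and 1.19 against 497 to 539. In Rpa2 the total fell in Abl.2 while the maternal allele was above every other library.

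The 10 other members of the 14 that were lower in Abl.2 than in both lines and have allelic counts used both alleles. Each had both alleles below every library of the other lines. They were chosen for a lower total in the same libraries, so with both alleles in use this largely follows from that choice. It was not compared with genes at large. Rfc3 gave 33.3 and 33.3 maternal and 33.0 and 33.7 paternal CPM in Abl.2, 58.6 and 57.0 maternal and 66.1 and 69.1 paternal in Abl.3, and 47.2 and 47.0 maternal and 60.6 and 67.0 paternal in Abl.4. For Tyms the ratio of Abl.2 to Abl.3 was 0.67 for the maternal and 0.498 for the paternal allele, and to Abl.4 it was 0.783 and 0.67. Cdc45 had ratios of 0.575 and 0.605 to Abl.3 and of 0.713 and 0.674 to Abl.4.

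**Figure D5:**
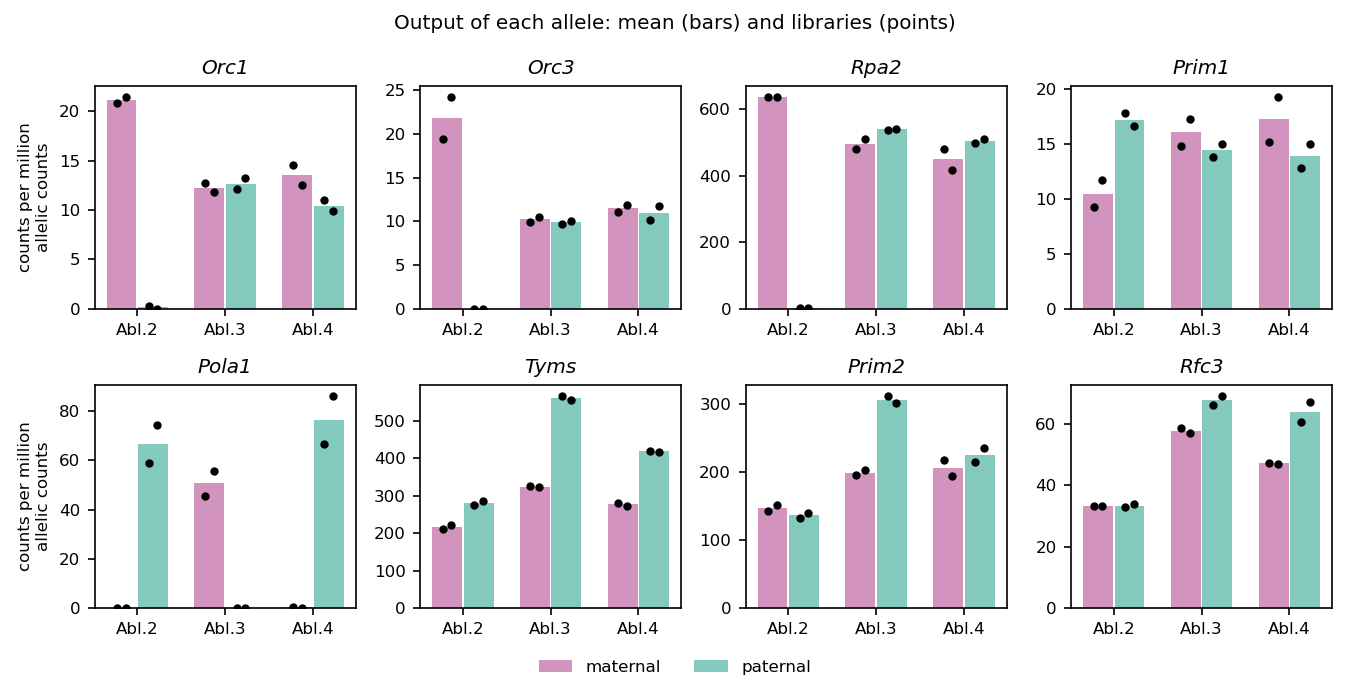
Maternal and paternal CPM (counts scaled to the allelic total of the library) for 8 members, as the mean of each line (bars, starting at 0) and the 2 libraries (points). Orc1, Orc3 and Rpa2 have almost no paternal bar in Abl.2 and a taller maternal bar than in the other lines, Pola1 has 1 allele in each line, and Tyms and Rfc3 have both bars lowest in Abl.2.

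Pola1 had 1 allele in use in every line, but not the same one. Abl.2 had 1 and 4 maternal against 1342 and 2006 paternal counts, and Abl.4 had 5 and 2 against 1336 and 1727. Abl.3 had 907 and 1023 maternal against 3 and 2 paternal counts. The maternal share was 0.000745 (95% Wilson interval 0.000132 to 0.00421) and 0.00199 (0.000774 to 0.00511) in Abl.2, and 0.997 (0.990 to 0.999) and 0.998 (0.993 to 0.9995) in Abl.3. Male mammals inherit their X from the mother, and female cells silence one X in each cell and its descendants. The median share of 222 X-linked genes was 0.000902 and 0.00101 in Abl.2, 0.999 and 1.0 in Abl.3 and 0.0 in both libraries of Abl.4.

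Prim1, the catalytic primase subunit on chromosome 10 (chr10:128015168-128030037), had lower maternal shares in Abl.2 than in the other lines. Its shares were 0.340 (95% Wilson interval 0.304 to 0.379) and 0.413 (0.378 to 0.448) in Abl.2, 0.517 and 0.535 in Abl.3 and 0.544 and 0.563 in Abl.4. The differences of -0.150 and -0.177 were called (edgeR adjusted p = 0.00939 and 0.00396), and the libraries did not overlap. Each of these calls was lost under at least 1 alternative. The median share of 431 chromosome 10 genes was 0.337 and 0.336 in Abl.2 and 0.502 to 0.505 in the other lines. Abundance of chromosome 10 genes was higher in Abl.2, with a median log2 difference of 0.588 from Abl.3 and 0.443 from Abl.4 over 511 genes, but Prim1 was at 83.85 and 97.68 TPM in Abl.2, 84.72 and 93.20 TPM in Abl.3 and 86.03 and 101.09 TPM in Abl.4. Its differences of 0.026 and -0.043 were not called. Lyz2, the gene behind the myeloid sum above, is also on chromosome 10.

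Several members on chromosomes 1 and 5 had lower maternal shares in Abl.3. Prim2 had shares of 0.520 and 0.520 in Abl.2, 0.384 and 0.403 in Abl.3 and 0.501 and 0.452 in Abl.4, with differences of 0.126 and -0.083 called against Abl.2 and Abl.4 (edgeR adjusted p = 8.02e-05 and 0.00366). Orc2, which binds origins with the other ORC subunits, was at 0.556 and 0.554, 0.455 and 0.448, and 0.571 and 0.566, with differences of 0.104 and -0.117. For Mcm6 the shares were 0.479 and 0.485 in Abl.2, 0.416 and 0.436 in Abl.3 and 0.468 and 0.477 in Abl.4, so Abl.3 was separate here as well. Mcm7 on chromosome 5 was at 0.462 and 0.457, 0.432 and 0.416, and 0.478 and 0.475. Lost under at least 1 alternative were the call of Prim2 between Abl.3 and Abl.4 and those of Mcm6 and Mcm7 between Abl.2 and Abl.3. The median share in Abl.3 was 0.446 and 0.447 over 492 chromosome 1 genes and 0.448 and 0.452 over 599 chromosome 5 genes, against 0.490 to 0.507 in the other lines. Tyms, Pole, Rfc2, Rfc3 and Rfc5 also lie on chromosome 5, and all of these but Rfc3 had their lowest mean share in Abl.3.

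The remaining called differences were of 0.05 to 0.11 in share, and each of these calls was lost under at least 1 alternative. Between Abl.2 and Abl.3, Pole was called with 0.591 and 0.6 in Abl.2, 0.557 and 0.492 in Abl.3 and 0.589 and 0.568 in Abl.4. Rfc5 was called in the same pair, at 0.564 and 0.581 in Abl.2, 0.477 and 0.501 in Abl.3 and 0.512 and 0.532 in Abl.4. Both had their lowest shares in Abl.3. Between Abl.2 and Abl.4, Rfc3 was called at 0.502 and 0.497 in Abl.2, 0.470 and 0.452 in Abl.3 and 0.438 and 0.412 in Abl.4. Pole2 went the other way, at 0.441 and 0.425 in Abl.2, 0.490 and 0.488 in Abl.3 and 0.565 and 0.525 in Abl.4. In both genes Abl.3 lay between the other lines. Rfc2 was called between Abl.3 (0.525 and 0.488) and Abl.4 (0.567 and 0.550), and was at 0.515 and 0.521 in Abl.2. In each called pair the libraries of the lines did not overlap. Orc2, Mcm7, Pole, Pole2, Rfc2 and Rfc5 are among the 16 members with an exon that overlaps an exon of another gene, so their counts can hold reads of the neighbour.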

How the data were processed

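RNA-seq of 6 libraries, 2 for each of 3 clones, was analysed. The deposited abundance values are TPM that the authors, per the file headers, made with DESeq2. The allele table holds whole-number counts of the maternal and paternal allele, taken at SNPs within each gene per the file headers. The last deposited table gives, for each line, the maternal fraction as the authors estimated it, with limits whose confidence level is not given in the sources used here. STAR 2.5.4a, SAMtools, GATK and DESeq2 and the builds GRCm38, mm10 and GRCh37 are named without roles per the submitters' processing notes. The depth behind TPM is unknown. Coordinates are those of the deposited tables, and 98.7% of 35412 genes had the same start in GENCODE M21 (GRCm38).

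In R 4.3.3, log2(TPM + 1) was tested with limma 3.58.1 (trend, all 6 libraries) for genes whose mean reached 1 TPM, and allelic counts with the edgeR 4.0.16 quasi-likelihood test (intercept per library, allele effect per line, equal library sizes for both alleles) for genes with at least 20 counts in each library. Tests were two-sided, with Benjamini-Hochberg adjustment over all genes and a threshold of 0.05. Maternal and paternal stand as in the tables; which strain was which parent was not used. Intervals are 95% Wilson intervals, and a count of 0 was given a limit of 3 counts.

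Members and gene lists were chosen with earlier results of these data known. Members with the 3 largest called changes of a pair, a mean share outside 0.4 to 0.6, a called allelic difference, a place on chromosomes 4, 10 or X, or no allelic counts were given with every library's value of that measure (share for the allelic criteria, TPM otherwise). Other members named were chosen after their values were seen. Replicate libraries differed by more than sampling noise (chi-square over degrees of freedom 12.5 to 21.8), so none was counted as a copy. Alternatives were other pseudocounts, filters and normalisations, a replicate block, each library left out, and edgeR and DESeq2 1.42.0 on counts summed over alleles. Deviations of same-numbered libraries correlated at 0.104, 0.187 and 0.161 in the 3 pairs of lines; this pairing rests on the data, since the labels do not say that a number marks a shared batch. The fits were tested on simulated data, in which false calls of allelic differences in Abl.2 against Abl.3 were more frequent than the threshold states.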

Additional observations from a re-analysis of the deposited data

Results flagged for a closer look

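The test of the difference between the allele effects of a pair of lines (edgeR, adjusted p below 0.05) picked out 15 members, and the values here are differences of the mean maternal share, first line minus second. Between Abl.2 and Abl.3 the chromosome 4 members differed by 0.501 (Orc1), 0.491 (Orc3) and 0.52 (Rpa2), and between Abl.2 and Abl.4 by 0.428, 0.488 and 0.527. All of these are higher in Abl.2, in both of its libraries. Pola1 on the X chromosome differed by -0.996 in Abl.2 minus Abl.3 and by 0.995 in Abl.3 minus Abl.4. Prim1 on chromosome 10 differed by -0.15 and -0.177 from Abl.3 and Abl.4.

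Members whose share was lower in Abl.3 were Prim2 (0.126 in Abl.2 minus Abl.3 and -0.083 in Abl.3 minus Abl.4), Orc2 (0.104 and -0.117), Mcm6 (0.056 and -0.046) and Mcm7 (0.036 and -0.052). Tyms, like Mcm7 on chromosome 5, was also lowest in Abl.3. It differed in every pair, by 0.071 for Abl.2 minus Abl.3, 0.039 for Abl.2 minus Abl.4 and -0.032 for Abl.3 minus Abl.4. Single pairs were picked out for Pole (0.071) and Rfc5 (0.084) between Abl.2 and Abl.3, for Pole2 (-0.111) and Rfc3 (0.074) between Abl.2 and Abl.4, and for Rfc2 (-0.052) between Abl.3 and Abl.4. Of these, Pole, Rfc2, Rfc3 and Rfc5 are on chromosome 5 as well. The share of members picked out was near that of all genes, as given above with the calls lost under an alternative.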

How the results depend on the processing

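Abundance calls depended on single libraries. Over the fits that left out 1 library, called members ranged from 11 to 24 in Abl.2 against Abl.3, 10 to 19 in Abl.2 against Abl.4 and 2 to 7 in Abl.3 against Abl.4, and members lower in Abl.2 than in both lines from 8 to 14, a count chosen after seeing the data. Member medians ranged from -0.273 to -0.238, -0.304 to -0.275 and -0.089 to -0.013. Allelic differences ranged from 9 to 12, 4 to 8 and 5 to 8, and imbalances from 13 to 25, 13 to 19 and 15 to 20 in Abl.2, Abl.3 and Abl.4. Where a line kept 1 library, that library was assumed to vary like the others. In each of these fits the share of all genes called lower in Abl.2 than in both lines was also smaller than with every library kept. The median in Abl.3 minus Abl.4 was 0.081 with edgeR and 0.088 with DESeq2 on summed counts. The counts with added size limits that follow have no share of all genes beside them and are not compared with genes at large. When calls also needed a log2 difference of 1 or more in size, 2, 1 and 0 members were called. With a share difference of at least 0.1 required, 7 members differed in Abl.2 against Abl.3, 5 in Abl.2 against Abl.4 and 2 in Abl.3 against Abl.4, and with a share of at most 0.4 or at least 0.6 required, 5, 3 and 2 were imbalanced. Directions turned for Rfc1 in Abl.3 minus Abl.4 (0.008 and 0.016 with edgeR and DESeq2 on summed counts) and for Pola2 within Abl.2 (-0.021 with a library size for each allele); the cause was not tested. Quantile normalisation changed the share of calls that were higher in the first line from 65.0% to 51.4%, 44.9% to 52.8% and 29.8% to 52.0% of all genes called. With the replicate block, 24, 27 and 13 members were called, and 19 were lower in Abl.2 than in both lines, where 9.71% of all genes were. Allelic differences with the block were 12, 7 and 7, and imbalances 20, 15 and 17. Apart from the 19, these counts have no share of all genes beside them. The block changed no other call of a member than those named above. Calls kept under every alternative run were 10 of 21, 9 of 18 and 1 of 9 for abundance, 7 of 12, 3 of 7 and 4 of 7 for allelic differences, and 12 of 21, 11 of 17 and 10 of 21 for imbalances. TPM carry no depth, so no limit from depth can be given for abundance. For alleles it was lowest for Orc3, with 378 counts.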

Other observations

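Genes of the related lists that lie on the same chromosomes had shares like those of the members. On chromosome 4, Pole3 (a polymerase epsilon subunit), Clspn (claspin, a checkpoint adaptor), Cmpk1, Nasp and E2f2 had maternal shares of 0.9964 to 0.9992 in the Abl.2 libraries and of 0.4491 to 0.5600 in the others. Clspn was at 35.43 and 33.80 TPM in Abl.2, 58.41 and 62.93 TPM in Abl.3 and 81.37 and 81.53 TPM in Abl.4. It fell in Abl.2 by 0.79 against Abl.3 and by 1.21 against Abl.4 on the log2 scale (limma adjusted p = 0.000664 and 0.000115), and its 3 lines did not overlap.

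On chromosome 10, Timeless, Mcm9, Dna2, Asf1a, E2f7, Cdk2 and Cdk1 had shares of 0.2657 to 0.4403 in Abl.2 and 0.4248 to 0.6452 in the other libraries. Each gene's Abl.2 libraries were below its own libraries in the other lines. Timeless, Mcm9, Asf1a and Cdk1 were called higher in Abl.2 than in both lines in TPM by limma, and E2f7 than in Abl.3. Dna2, a nuclease of Okazaki fragment processing, was at 37.22 and 35.11 TPM in Abl.2, 34.13 and 32.31 TPM in Abl.3 and 38.18 and 36.12 TPM in Abl.4. Its Abl.2 libraries overlapped those of Abl.4, and no pair was called. Outside these chromosomes, E2f6 had a mean maternal share of 0.736 in Abl.3, where Abl.4 had 0.484.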
